A study of Mus musculus with 11 samples.

Results

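Toll-like and NOD receptors are the innate sensors whose signals pass through TAK1, the kinase encoded by Map3k7, and 9 genes of this arm were followed: Cd14, Tlr2, Tlr3, Tlr4, Ly96, Myd88, Nod1, Nod2 and Irak2. They were taken by symbol from the table of counts, which lists 48299 genes, and all 9 were found and passed the filter on low counts that left 14346 genes for testing. The libraries came from WFU3, a mouse line of prostate epithelial stem cells, after lentiviral delivery of short hairpin RNAs, and the study set knockdown of Map3k7, of Chd1 and of both against control hairpins. RNA was taken 24 h after plating, selected with oligo(dT) and sequenced.

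The 2 shMap3k7 libraries were of clone 1 (passage 49) and clone 7 (passage 47), each with a GFP-marked hairpin against Map3k7 and a control hairpin in the puromycin vector. In the 4 shDouble libraries the same clones carried a Chd1 hairpin in place of that control, construct 96526 or 96528: replicates 1 and 2 were clone 1 at passage 49, and replicates 3 and 4 were clone 7 at passage 48. Both shChd1 libraries came from control line 4, with construct 96526 at passage 52 (replicate 1) and construct 96528 at passage 50 (replicate 2). The 3 shControl libraries carried control hairpins only: an unnumbered line at passage 30, marked puro and neo (replicate 1), and the GFP-marked control lines 4 and 5 at passage 52 (replicates 2 and 3). Every library therefore carried a pair of vectors. The Map3k7 clones were each grown from single colonies picked with cloning cylinders, as were control lines 4 and 5, so 2 clones stand for the Map3k7 hairpin, and all Chd1 hairpins without it sit in 1 control line. No passage number is shared between the 6 libraries of the Map3k7 clones, at passages 47 to 49, and the other 5, at passages 30, 50 and 52. Nothing in the labels says that libraries of a line came from separate cultures, and the p-values measure the spread between these libraries, which may in part be technical.

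Cd14 lies on chromosome 18 (36725067 to 36726798, minus strand of GRCm38, GENCODE M21 annotation). Tlr2 lies on chromosome 3 (83836272 to 83841767, minus strand), Tlr4 on chromosome 4 (66827584 to 66930284, plus strand) and Ly96 on chromosome 1 (16688051 to 16709611, plus strand). Tlr3 and Nod2 share chromosome 8 (45395665 to 45411080, minus strand, and 88647315 to 88688474, plus strand). Nod1 and Irak2 share chromosome 6 (54923949 to 54972612, minus strand, and 113638467 to 113695026, plus strand), and Myd88 lies on chromosome 9 (119335934 to 119341411, minus strand). All 9 are annotated as protein-coding.

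CD14 is a surface protein that hands bacterial lipopolysaccharide and lipopeptides to Toll-like receptors. TLR4 binds lipopolysaccharide with the help of MD-2, the product of Ly96, and TLR2 binds bacterial lipopeptides, while TLR3 sits in endosomes and binds double-stranded RNA. NOD1 and NOD2 are cytosolic sensors of peptidoglycan fragments. TLR2 and TLR4 recruit the adaptor MYD88 and IRAK kinases, among them IRAK2, and the NOD proteins recruit RIPK2; both routes activate TAK1, which in turn activates the IKK complex and NF-kB. TLR3 uses the adaptor TRIF, encoded by Ticam1, and not MYD88. Several of these receptor genes are themselves known NF-kB targets in other cells.

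RefSeq promoters (GRCm38.p6, 250 bases before to 50 after the start of transcription) were matched for 6 of the 9 genes: Tlr2, Tlr3, Myd88, Nod1, Nod2 and Irak2. Those of Tlr2, Nod1 and Nod2, which had the largest differences among the 6, are shown with that of Tlr3, which differed the other way. Each is written 5′ to 3′ on the strand of the gene, in lower case, with matches to the kappa-B motif, the binding motif of NF-kB, in capitals.
Tlr2 (chr3:83841559-83841858, minus strand): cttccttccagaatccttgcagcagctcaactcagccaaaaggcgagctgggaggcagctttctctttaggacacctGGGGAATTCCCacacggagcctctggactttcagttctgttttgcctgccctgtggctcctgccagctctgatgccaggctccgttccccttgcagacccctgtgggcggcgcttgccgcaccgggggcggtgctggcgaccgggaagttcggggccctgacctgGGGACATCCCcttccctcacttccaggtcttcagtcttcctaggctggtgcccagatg
Tlr3 (chr8:45410331-45410630, minus strand): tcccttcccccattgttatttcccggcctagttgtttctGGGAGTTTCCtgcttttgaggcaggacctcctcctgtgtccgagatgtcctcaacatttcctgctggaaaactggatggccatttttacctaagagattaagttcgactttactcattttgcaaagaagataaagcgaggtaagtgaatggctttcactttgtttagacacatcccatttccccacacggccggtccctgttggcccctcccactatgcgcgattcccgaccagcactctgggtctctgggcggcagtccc
Nod1 (chr6:54972563-54972862, minus strand): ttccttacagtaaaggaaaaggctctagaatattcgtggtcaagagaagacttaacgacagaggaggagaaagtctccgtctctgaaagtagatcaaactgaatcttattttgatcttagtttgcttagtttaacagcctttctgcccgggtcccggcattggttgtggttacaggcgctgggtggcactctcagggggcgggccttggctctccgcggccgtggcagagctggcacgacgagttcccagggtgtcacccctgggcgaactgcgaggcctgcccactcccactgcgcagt
Nod2 (chr8:88647097-88647396, plus strand): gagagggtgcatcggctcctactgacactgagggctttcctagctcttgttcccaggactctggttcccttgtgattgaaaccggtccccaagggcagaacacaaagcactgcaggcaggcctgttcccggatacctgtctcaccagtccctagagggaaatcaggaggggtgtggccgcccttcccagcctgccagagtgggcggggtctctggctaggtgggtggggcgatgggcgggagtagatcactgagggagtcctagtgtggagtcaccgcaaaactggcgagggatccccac
Searched on both strands, the kappa-B motif was present in 8.46% of 32851 promoters of this length and the AP-1 motif TGANTCA in 7.81%. The Tlr2 window held 2 separate kappa-B places, one made of 2 overlapping matches that begin 173 and 172 bases before the start and one that begins 8 bases before it. The Tlr3 window held 1, beginning 211 bases before the start. Neither motif was matched in the windows of Nod1, Nod2, Myd88 or Irak2, and AP-1 in none of the 6; these are letter matches only. The Tlr2 gene, which fell in both groups of Map3k7 clones, and Tlr3, which had its highest values there, thus both carried a match.

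Total counts ran from 14132371 to 23163709 per library, and 3 counts corresponded to 0.133 to 0.217 counts-per-million (CPM, scaled by the trimmed mean of M-values). Map3k7 itself was at 41.5 ± 2.07 CPM in shMap3k7 (n = 2) and 40.99 ± 1.27 in shDouble (n = 4), against 138.0 ± 0.263 in shChd1 (n = 2) and 133.7 ± 8.90 in shControl (n = 3; mean ± SD here and throughout). Chd1 was at 147.8 ± 3.43 CPM in shChd1 and 185.9 ± 16.3 in shDouble, against 229.3 ± 12.4 in shMap3k7 and 203.7 ± 8.60 in shControl, so the Chd1 hairpins left most of the transcript. Epithelial markers summed to 10130 to 10300 CPM in shMap3k7, 9896 to 10480 in shDouble and 2037 to 2290 in shChd1, against 3829 to 9654 in shControl. Against shControl, Cdh1 and Epcam were called higher in shMap3k7 (edgeR adjusted p = 0.0159 and 0.0417) and shDouble (0.00388 and 0.01). Krt18 and Krt8 were called higher in shDouble only (0.0231 and 0.0325). Trp63, a marker of basal cells, went against the sum, at 1.197 ± 0.866 CPM in shMap3k7, 1.27 ± 0.796 in shDouble and 9.55 ± 3.82 in shControl (adjusted p = 0.0184 and 0.00279). Krt5 was called lower in shDouble (adjusted p = 0.0476). Its shControl values ran from 0.0519 to 48.9 CPM, on both sides of the 0.156 to 0.780 in shDouble. Krt8 and Krt5 are outside the naming rule and were picked after their values were seen. In shChd1 against shControl, 5 of the 7 epithelial markers were called lower. Fibroblast marker sums ran the other way, beside 24.5 to 92.7 CPM in shControl. They were 7.34 to 9.99 CPM in shMap3k7, 5.11 to 8.76 in shDouble and 119.6 to 125.2 in shChd1. Most of the shChd1 sum was Col3a1, at 89.02 CPM against 17.73 in shControl. Pdgfrb was at 20.04 CPM in shChd1 against 15.32 in shControl. Col1a1 (2.192 against 6.507) and Pdgfra (10.72 against 11.39) were lower in shChd1. None of the 4 fibroblast markers tested was called in shChd1 against shControl. All 4 were called lower in shDouble against shControl, and 2, Pdgfrb and Col3a1, in shMap3k7. Pdgfrb had 1 count over shMap3k7 and 2 over shDouble, against 794 over shControl. Col3a1 had 1 and 3 counts, against 914 over shControl, where it ran from 1.21 to 33.99 CPM. The part of fibroblast markers in the results that follow was not tested. Myeloid markers, 7 of the 8 listed (Itgam was not analysed here), summed to 2.28 to 3.91 CPM in shMap3k7, 1.93 to 4.16 in shDouble and 1.58 to 1.62 in shChd1, against 1.45 to 2.43 in shControl, with Tyrobp at 0 in every library; the 4 lymphoid markers summed to at most 0.459 CPM. The shControl replicate 1 stood apart in its endothelial markers, which summed to 38.7 CPM there, with Cdh5 at 18.2 and Pecam1 at 17.0, and to at most 0.497 CPM in any other library. Without that library the same 5 and 7 genes of the set that are described below were called in shMap3k7 and shDouble, and Tlr3 in addition in both.

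Most of the set was lower in every library with the Map3k7 hairpin than in any library without it. This held for 6 of the 9 genes (Cd14, Tlr2, Tlr4, Nod1, Nod2 and Irak2), where 12.8% of all genes tested had the same order. Tlr3 had the opposite order, higher in all 6 libraries than in the other 5, as did 12.1% of genes. Ly96 and Myd88 overlapped. Against shControl, 5 of the 9 genes were called lower in shMap3k7 at an adjusted p under 0.05 (edgeR quasi-likelihood test, Benjamini-Hochberg adjustment over all genes), where 11.9% of all genes were called, 4.86% higher and 7.08% lower. In shDouble, 7 of the 9 were called lower, beside 23.8% of genes called overall (10.2% higher, 13.6% lower). The median log2 fold change of the 9 was -0.80 in shMap3k7 and -1.19 in shDouble, beside medians of -0.0086 and -0.0015 over all genes. Both comparisons use the same shControl libraries. In bulk RNA, fewer cells that express a gene and less RNA per cell cannot be told apart.

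**Figure D1:**
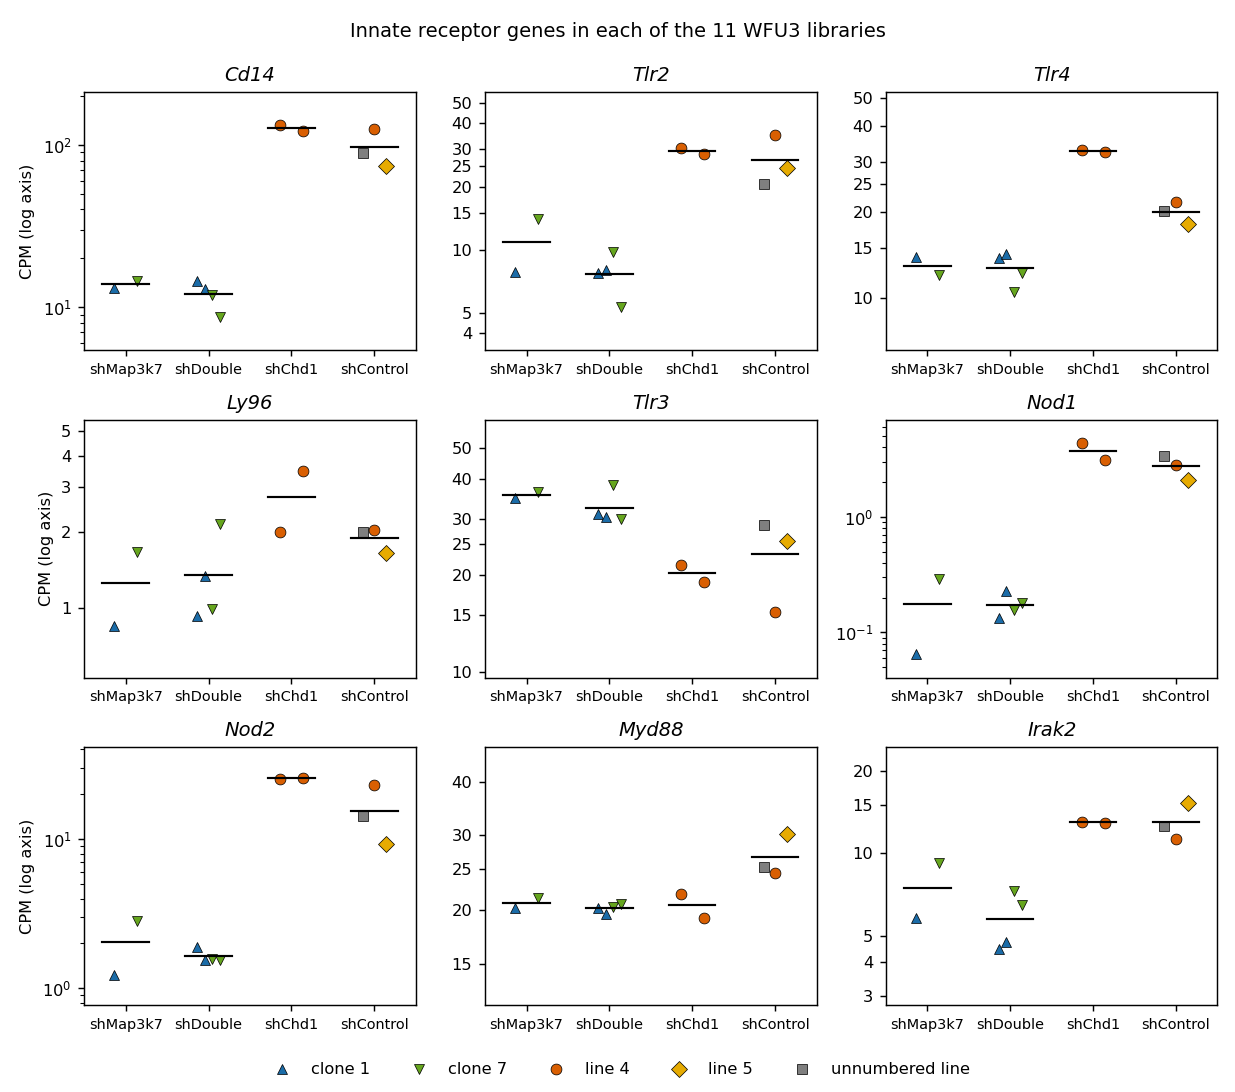
Level in CPM (log axis) of the 9 genes in each of the 11 libraries, by group; each point is 1 library, its symbol gives the line or clone, and the bar is the group mean. In 6 panels all points of shMap3k7 and shDouble lie below all points of shChd1 and shControl, and for Tlr3 they lie higher than all of those.

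Cd14 was the most abundant gene of the set in control cells and fell in both groups with the Map3k7 hairpin. Its level was 13.1 and 14.6 CPM in the shMap3k7 libraries and 14.4, 13.0, 11.8 and 8.73 in the shDouble libraries, against 132.3 and 121.4 in shChd1 and 88.9, 126.0 and 74.0 in shControl. The 6 libraries of the Map3k7 clones lay within a narrow range, far below the 5 others, and the groups did not overlap. Cd14 averaged 13.8 ± 1.00 CPM in shMap3k7 and 11.99 ± 2.42 in shDouble, against 96.3 ± 26.8 in shControl, or 14.4% and 12.5% of the control level. The log2 fold changes were -2.80 ± 0.26 (SE; adjusted p = 4.56e-04, edgeR) and -3.001 ± 0.20 (adjusted p = 2.4e-05). They were past the threshold in all 19 alternative settings. Within shControl, line 4 was the highest, and it is the parent of both shChd1 lines. CD14 is best known from myeloid cells, and of their markers Ptprc, Adgre1, Lyz2, Tyrobp and Fcer1g were at 0.195 CPM or less in every library. Cd68 was at 0.941 to 1.625 CPM in shMap3k7 and 1.15 to 1.68 in shDouble, against 1.10 to 1.93 in shControl, and did not pass (log2 differences -0.11 and 0.02, edgeR adjusted p = 0.885 and 0.976). Csf1r went against Cd14, with 1.82 ± 0.962 CPM in shDouble and 0.296 ± 0.172 in shControl (edgeR adjusted p = 0.0313).

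Tlr2 fell in the same libraries by less. It had 7.86 and 13.97 CPM in shMap3k7 and 7.73, 7.98, 9.73 and 5.35 in shDouble, against 30.7 and 28.6 in shChd1 and 20.6, 35.2 and 24.6 in shControl. Clone 7 with the Map3k7 hairpin alone was the highest of the 6 and clone 7 with construct 96528 the lowest, and all 6 lay below every other library. Against shControl, the log2 fold change was -1.30 ± 0.31 for shMap3k7 (edgeR adjusted p = 0.0258) and -1.80 ± 0.25 in shDouble (adjusted p = 0.00114). In shMap3k7 the call was lost in 4 of 19 alternatives: without clone 1 (shMap3k7 replicate 1; adjusted p = 0.179), without shControl replicate 2 (0.0633), with only the groups compared (0.102) and with counts summed per line (0.0791).

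Tlr4, the lipopolysaccharide receptor, was lower with the Map3k7 hairpin and higher with the Chd1 hairpins alone. It had 13.9 and 12.02 CPM in shMap3k7, 13.8, 14.3, 10.5 and 12.2 in shDouble and 32.9 and 32.5 in shChd1, against 20.2, 21.7 and 18.1 in shControl. The 4 groups formed 3 levels with no overlap, shMap3k7 and shDouble together at the bottom, shControl between and shChd1 at the top. The log2 fold change was -0.62 ± 0.16 in shMap3k7 (edgeR adjusted p = 0.0302), -0.65 ± 0.13 in shDouble (adjusted p = 0.00562) and 0.71 ± 0.15 in shChd1 (adjusted p = 0.0429). The call in shChd1, whose libraries are both of control line 4, was lost in 13 of 19 alternatives. The fall in shMap3k7 was lost in 8 of 19 alternatives, among them each fit that left out shMap3k7 replicate 1 or 2, shControl replicate 2, or shChd1 replicate 1 or 2, with adjusted p up to 0.177.

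Ly96, the partner of TLR4, had few counts. It had 0.845 and 1.67 CPM in shMap3k7 and 0.928, 1.33, 0.989 and 2.14 in shDouble, against 1.99 and 3.48 in shChd1 and 1.996, 2.02 and 1.65 in shControl, which rest on 36 counts in all in shMap3k7, 105 in shDouble, 87 in shChd1 and 101 in shControl. The groups overlapped, and the log2 differences of -0.59 ± 0.46 in shMap3k7 and -0.50 ± 0.37 in shDouble against shControl did not pass the test (edgeR adjusted p = 0.424 and 0.364).

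Tlr3 was the only gene of the set with a positive difference in shMap3k7 and shDouble. It had 35.03 and 36.4 CPM in shMap3k7 and 31.1, 30.6, 38.4 and 30.1 in shDouble, against 21.6 and 19.0 in shChd1 and 28.8, 15.4 and 25.7 in shControl. The controls were scattered, with line 4 well below the other control lines, and yet all of them lay below the Map3k7 clones. The log2 difference was 0.62 ± 0.22 in shMap3k7 (edgeR adjusted p = 0.0961) and 0.48 ± 0.19 in shDouble (adjusted p = 0.0905), neither past the threshold. Tlr3 was also fitted with line as a replicate block, which takes the spread within lines and leaves out the spread between lines. Both differences passed in that fit (edgeR adjusted p = 0.00172 and 0.00161), where 5270 and 6626 of 14346 genes were called. They also passed without shControl replicate 1 (edgeR adjusted p = 0.0462 and 0.0403). With counts summed per line, neither passed (adjusted p = 0.2 and 0.279).

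**Figure D2:**
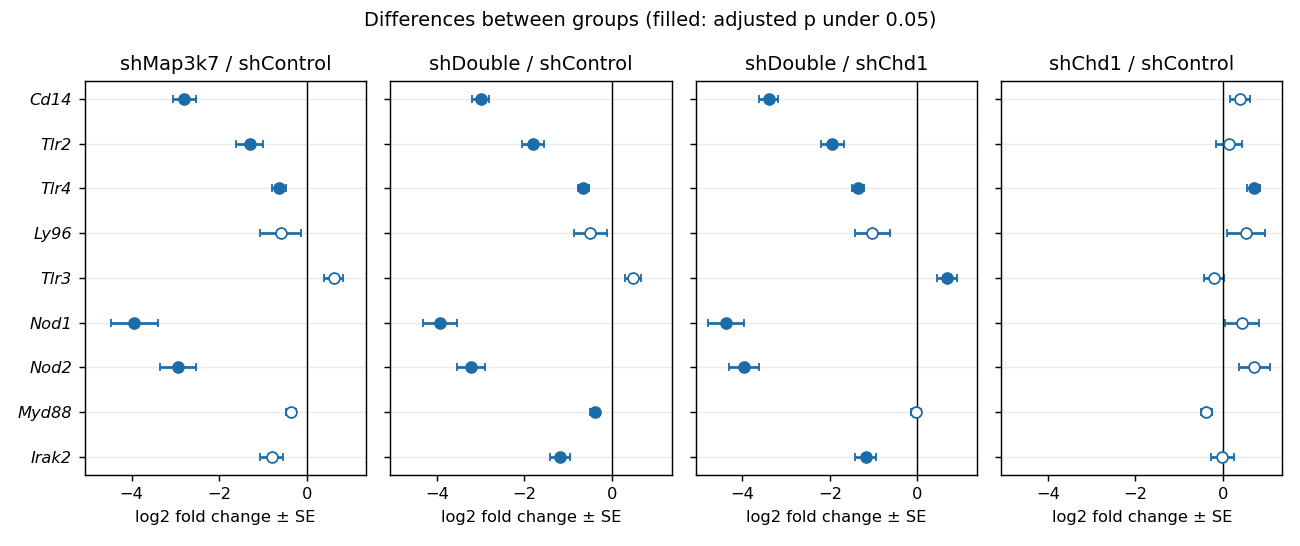
Log2 fold changes (points) with standard errors (bars) of the 9 genes in 4 comparisons; filled points passed an adjusted p of 0.05 in edgeR. Nod1, Nod2 and Cd14 lie furthest to the left in the first 3 panels, Tlr3 lies to the right of 0 there, and Tlr4 is the only filled point for shChd1 against shControl.

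The NOD receptors showed the largest fold changes of the set. Nod1 had 0.0650 and 0.290 CPM in shMap3k7, from 1 and 4 counts, and 0.133, 0.229, 0.156 and 0.178 in shDouble, from 3, 5, 3 and 3 counts, against 4.35 and 3.10 CPM in shChd1 and 3.37, 2.80 and 2.09 in shControl, from 70, 49, 54, 54 and 38 counts. The lowest library without the Map3k7 hairpin was several times above the highest with it. The log2 fold change was -3.94 ± 0.54 in shMap3k7 (edgeR adjusted p = 0.0028) and -3.93 ± 0.39 in shDouble (adjusted p = 1.88e-04), called in all 19 alternatives. The fitted value in shMap3k7 was -3.22 without shMap3k7 replicate 1 and -5.27 without shMap3k7 replicate 2. By pooled counts the level was 15.9-fold lower in shMap3k7 (exact 95% counting interval 6.67 to 49.8) and 15.7-fold lower in shDouble (9.05 to 29.4). These intervals cover counting error only.

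Nod2 was the better measured of the pair. It had 1.24 and 2.82 CPM in shMap3k7 and 1.90, 1.56, 1.56 and 1.54 in shDouble, against 25.4 and 25.8 in shChd1 and 14.3, 22.9 and 9.29 in shControl. The controls spread widely, with line 4 highest and line 5 lowest, and the lowest of them was still well above every Map3k7 clone library. The log2 fold change was -2.94 ± 0.42 in shMap3k7 (edgeR adjusted p = 0.00332) and -3.23 ± 0.32 in shDouble (adjusted p = 1.88e-04). In shMap3k7 the call was lost when only the groups compared were fitted (adjusted p = 0.0609), and the log2 fold change was -2.46 without shMap3k7 replicate 1 and -3.65 without shMap3k7 replicate 2.

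The signalling adaptors differed less. Myd88 had 20.2 and 21.4 CPM in shMap3k7 and 20.2, 19.6, 20.4 and 20.7 in shDouble, against 21.9 and 19.2 in shChd1 and 25.3, 24.5 and 30.1 in shControl. The shControl libraries stood above all others, and the Chd1 hairpins alone had levels like those of the Map3k7 clones. The log2 fold change was -0.39 ± 0.10 in shDouble (edgeR adjusted p = 0.0184), -0.36 ± 0.12 in shMap3k7 (adjusted p = 0.0833) and -0.37 ± 0.12 in shChd1 (adjusted p = 0.103). The shDouble call was lost in 3 of 19 alternatives. These were without shControl replicate 3 (edgeR adjusted p = 0.0631), with no filter on low counts (0.0561) and with counts summed per line. In the fit blocked by line, the difference in shMap3k7 passed (adjusted p = 0.0146), and with counts summed per line it did not (adjusted p = 0.206). On the opposite strand, Acaa1a overlaps 11.3% of the exon bases of Myd88, and it fell too, to 51.8 CPM in shMap3k7 and 49.0 in shDouble, against 74.0 in shControl (edgeR adjusted p = 0.0410 and 0.00547); the strand setting of the counting is not given in the sources used here, so reads of the overlap cannot be assigned.

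Irak2, a kinase of the MYD88 complex, had 5.78 and 9.19 CPM in shMap3k7 and 4.46, 4.73, 7.28 and 6.47 in shDouble, against 13.0 and 13.0 in shChd1 and 12.5, 11.3 and 15.3 in shControl. All 6 libraries of the Map3k7 clones lay below the 5 others, and clone 7 stood above clone 1. The log2 fold change was -1.19 ± 0.22 in shDouble (edgeR adjusted p = 0.00426) and -0.80 ± 0.27 in shMap3k7 (adjusted p = 0.0793). In the fit blocked by line, the difference in shMap3k7 passed (adjusted p = 0.00108), and with counts summed per line it did not (adjusted p = 0.171).

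Per kilobase of exon, the order of levels changed with the Map3k7 hairpin. In shMap3k7, Myd88 (8.07 ± 0.313 CPM per kb), Cd14 (7.99 ± 0.580) and Tlr3 (6.86 ± 0.187) led, and the first pair did not differ beyond its spread. In shDouble the same 3 genes led at 7.86 ± 0.178, 6.92 ± 1.40 and 6.25 ± 0.756 CPM per kb, with neighbouring gaps within the larger SD. In shChd1, Cd14 led at 73.2 ± 4.45 CPM per kb, followed by Tlr2 (9.82 ± 0.493) and Myd88 (7.98 ± 0.736). In shControl, Cd14 led at 55.6 ± 15.5 CPM per kb, followed by Myd88 (10.3 ± 1.19) and Tlr2 (8.89 ± 2.51), which did not differ beyond their spread. Tlr3 (4.47 ± 1.35), Tlr4 (3.60 ± 0.320), Nod2 (3.09 ± 1.38) and Irak2 (2.96 ± 0.461) in shControl followed without a gap beyond the larger SD between neighbours. Ly96 (1.85 ± 0.204) and Nod1 (0.542 ± 0.126) were the lowest in shControl, and Nod1 was last in all 4 groups. Nod2 held rank 5 in shChd1, at 5.11 ± 0.0574 CPM per kb, and rank 8 in shMap3k7 and shDouble, at 0.405 ± 0.224 and 0.327 ± 0.0345.

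Double knockdown was then set against each single knockdown. The shDouble libraries are of the Map3k7 clones and both shChd1 libraries are of 1 control line, at other passages. Against shChd1, the Map3k7 hairpin and the line therefore cannot be told apart. Against shChd1, 6 of the 9 genes were called lower in shDouble and 1 was called higher, where 44.8% of all genes were called, 22.2% lower and 22.6% higher. Nod1 and Nod2 had log2 fold changes of -4.37 ± 0.41 and -3.96 ± 0.34 (edgeR adjusted p = 7.74e-05 and 5.35e-05). Cd14 differed by -3.40 ± 0.21 (adjusted p = 1.21e-05). Tlr2, Tlr4 and Irak2 differed by -1.94 ± 0.27, -1.36 ± 0.14 and -1.18 ± 0.24. Tlr3 was the gene called higher, at 32.5 ± 3.94 CPM in shDouble against 20.3 ± 1.86 in shChd1 (log2 fold change 0.68 ± 0.22, edgeR adjusted p = 0.0289), and that call was lost in 4 of 19 alternatives, namely without shDouble replicate 3 (adjusted p = 0.0617), without shChd1 replicate 1 (0.0878) or 2 (0.181), and with counts summed per line (0.220). Myd88 differed by -0.02 ± 0.12 and Ly96 by -1.03 ± 0.41 (adjusted p = 0.897 and 0.0631). In the fit blocked by line, Ly96 passed (adjusted p = 0.0326), and with counts summed per line it did not (adjusted p = 0.2).

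Against shMap3k7, none of the 9 genes passed in shDouble (edgeR; 0 at an unadjusted p under 0.05; 0 with DESeq2 and with limma voom), where 0% of all genes were called. The largest log2 difference was that of Tlr2, -0.50 ± 0.29, with 7.70 ± 1.80 CPM in shDouble and 10.9 ± 4.32 in shMap3k7, and the ranges of the 2 groups overlapped for every gene of the set. Chd1, the target of the added hairpins, was not called either (-0.30 ± 0.10), although its ranges did not overlap. Chd1 was also not called in shDouble against shControl (-0.13 ± 0.09), where its ranges overlapped. A null result for the 9 genes, here or in the interaction below, therefore cannot show that the Chd1 hairpins had no effect. Whether the Chd1 hairpins acted differently with and without the Map3k7 hairpin was tested as an interaction, the difference of shDouble and shMap3k7 minus that of shChd1 and shControl. None of the 9 passed in edgeR, where 0% of all genes were called. None of them passed with limma voom or DESeq2 either, where 0 and 371 of all genes were called. Without shControl replicate 2 none of the 9 passed, while 1006 of 14194 genes did. Tlr4 was the 1 gene of the set with an unadjusted p under 0.05 in the main edgeR fit, at -0.74 ± 0.21 on the log2 scale (adjusted p = 0.222).

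For the Chd1 hairpins alone, 1 of the 9 genes was called, Tlr4, higher in shChd1 than in shControl, where 2.91% of all genes were called, 0.662% higher and 2.24% lower. The call did not hold in the fit blocked by line, which sets the shChd1 libraries against their own parent line (0.59 on the log2 scale, adjusted p = 0.0698), nor in 12 other alternatives, among them each fit with 1 library left out other than shControl replicate 2. Nod2 was higher in both shChd1 libraries than in any shControl library, but the difference, 0.73 ± 0.35, did not pass (edgeR adjusted p = 0.224). Cd14 differed by 0.40 ± 0.22 (adjusted p = 0.296), Tlr2 by 0.14 ± 0.29 (adjusted p = 0.798) and Irak2 by -0.0072 ± 0.26 (adjusted p = 0.989). Without shControl replicate 2, which is line 4 itself, Cd14, Tlr4, Myd88 and Nod2 all passed. In that fit 2650 of 14194 genes were called, against 417 of 14346 in the main fit.

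Within a line, the level with each Chd1 construct can be read as a percentage of the level in the same line with a control hairpin. These are values of single libraries, with no test. Tlr4 was at 99.4% and 102.6% with constructs 96526 and 96528 in clone 1, at 87.5% and 101.3% in clone 7, and at 151.8% and 150.1% in line 4. The Tlr4 excess thus appeared with both constructs in line 4 and in neither clone. Nod2 was at 153.9% and 126.3% in clone 1, at 55.3% and 54.7% in clone 7, and at 111.0% and 112.7% in line 4. The 4 shDouble libraries were alike, at 1.54 to 1.90 CPM. The opposite directions in the clones come from the single shMap3k7 library of each. These had 1.24 CPM (19 counts) in clone 1 and 2.82 CPM (39 counts) in clone 7, and each served for both constructs. Tlr2 was at 98.3% and 101.5% in clone 1, at 69.6% and 38.3% in clone 7, and at 87.1% and 81.1% in line 4. Irak2 was below the level without the construct in all 4 shDouble libraries (77.2% and 81.7% in clone 1, 79.2% and 70.4% in clone 7) and above it in line 4 (115.0% and 114.6%). Cd14 stayed between 96.3% and 109.7% in clone 1 and line 4, and was at 81.2% and 60.0% in clone 7. Nod1 percentages in the clones rest on 1 to 5 counts a library. Chd1 itself was at 73.5% to 89.7% over these 6 pairs of libraries.

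**Figure D3:**
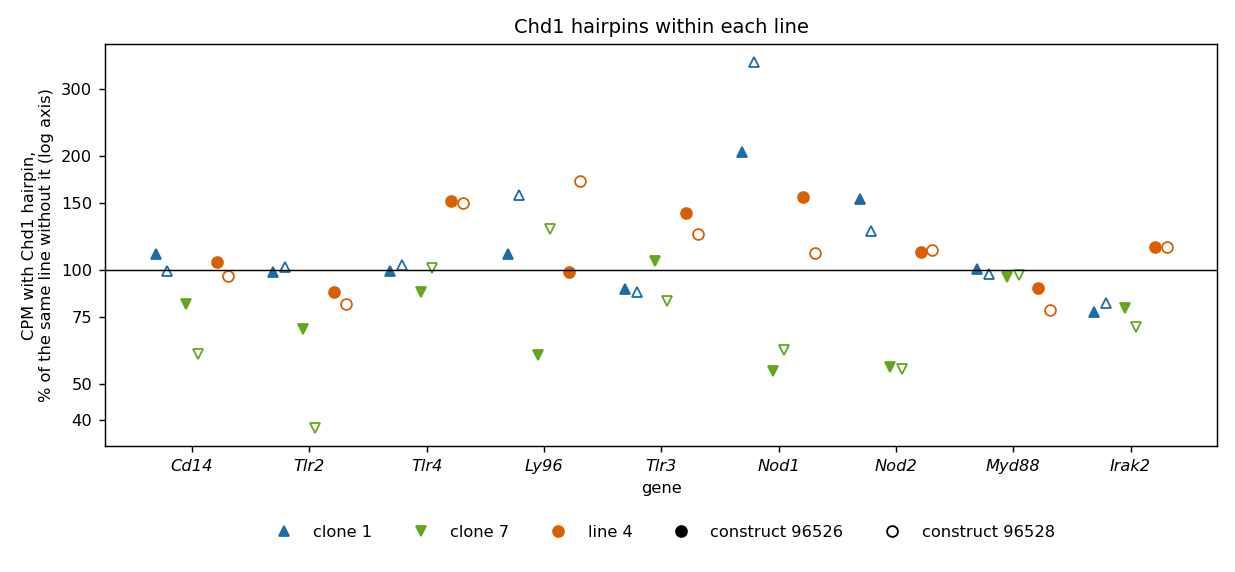
Level of each gene with a Chd1 hairpin as a percentage of the same line without it (log axis), with 1 point per library, by line and construct. Tlr4 lies near 150% with both constructs in line 4 and near 100% in both clones, and Nod2 lies above 100% in clone 1 and near 55% in clone 7. The Nod2 percentages in the clones rest on 1 shMap3k7 library each, with 19 counts in clone 1 and 39 in clone 7.

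The Map3k7 clones are the only independent lines with that hairpin, and they were set against each other over 3 libraries each. Of the 9 genes 1 was called, Irak2, where 27.6% of all genes were called, 15.4% higher and 12.2% lower in clone 1. Irak2 was at 4.99 ± 0.700 CPM in clone 1 and 7.65 ± 1.40 in clone 7 (log2 fold change -0.61 ± 0.12, edgeR adjusted p = 0.0062). Tlr4 was at 14 ± 0.232 CPM in clone 1 and 11.6 ± 0.919 in clone 7, without overlap (log2 difference 0.28 ± 0.09, adjusted p = 0.0502). Genes of chromosome 4, where Tlr4 lies, had a median log2 departure from the shControl mean of 0.31 to 0.32 in clone 1 and 0.11 to 0.12 in clone 7, over 882 genes. For chromosome 8, with Tlr3 and Nod2, the median was 0.016 to 0.068 in clone 1 and 0.22 to 0.23 in clone 7, over 789 genes. Against shControl, the falls of Tlr4 and Nod2 were opposite in sign to the medians of their chromosomes, and the positive difference of Tlr3 had the same sign as its median. Between the clones, Tlr4 and the median of chromosome 4 were both higher in clone 1. Tlr3, Nod2 and the median of chromosome 8 were all lower in clone 1, and neither gene was called. A part of the chromosomes in these differences was not tested. Cd14, with 13.5 ± 0.768 CPM in clone 1 and 11.7 ± 2.91 in clone 7, did not pass (adjusted p = 0.254).

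Genes close to the members on the chromosome were called too. Over the 9 genes, 82 tested genes lay within 500 kb of a member, and 14.6% of them were called in shMap3k7 and 30.5% in shDouble against shControl, beside 11.9% and 23.8% of all genes. Of 8 near Nod1, 1 was lower (Fkbp14) and 1 higher (Gars) in shMap3k7, and 3 were lower and 2 higher in shDouble. Of 4 near Nod2, 1 was lower in both (Adcy7) and 1 was higher in shDouble. Of 19 near Cd14, 1 was lower and 2 were higher in shMap3k7, and 2 were lower and 1 higher in shDouble. The median log2 difference of these neighbours was 0.07 in shMap3k7 and -0.07 in shDouble for Nod1, 0.23 in both for Nod2, and 0.08 and 0.06 for Cd14.

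The 9 genes followed each other to different degrees over the 11 libraries, which share lines and fall into 6 with and 5 without the Map3k7 hairpin. As a description of log2 CPM, Pearson's r was 0.985 between Cd14 and Nod2, 0.978 between Nod1 and Nod2, 0.968 between Cd14 and Nod1, and 0.956 between Cd14 and Tlr2. Tlr3 was negatively correlated with each of the other 8, with r between -0.275 (Myd88) and -0.845 (Nod2). Of the 9883 genes averaging 5 CPM or more, those whose pattern was most like Cd14 were Xdh (r = 0.997), Lrp1 (0.994) and Chst1 (0.993). For Nod2 they were Rnf150, Gprc5b and Matn2 (0.994 to 0.995), and for Nod1 Slpi, Arel1 and Tgfbr3 (0.986 to 0.990). For Tlr2 they were C1s1, Gbp2 and Myo7a (0.987 to 0.988), and for Tlr4 Bbx, Sel1l and Clip4 (0.984 to 0.991). Adarb2, Mtm1 and BC052040 were closest to Tlr3 (0.960 to 0.979), and Zfp281, Unc50 and Hmox1 to Irak2 (0.965 to 0.982). Gopc, Daglb and Ets2 were closest to Myd88 (0.940 to 0.946), and Acot1, Zfp157 and Tlr5 to Ly96 (0.916 to 0.925). Xdh, which encodes xanthine dehydrogenase, was at 3.79 ± 1.40 CPM in shMap3k7, 2.98 ± 1.10 in shDouble and 133.5 ± 19.95 in shChd1, against 85.2 ± 23.1 in shControl.

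The rest of the pathway was read from lists of genes by role, whose counts stand beside shares over all genes of 4.86% higher and 7.08% lower in shMap3k7, and 10.2% higher and 13.6% lower in shDouble. Of 9 other Toll-like receptors, 3 had enough counts to be tested, and 1 fell in shDouble: Tlr5, the flagellin receptor, at 9.21 ± 1.302 CPM in shDouble against 14.3 ± 2.66 in shControl (log2 fold change -0.63 ± 0.20, edgeR adjusted p = 0.0391). The list's median was -0.63. Tlr8, Tlr11 and Tlr12 had 0 counts in every library.

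Among the accessory and trafficking proteins, 12 of 15 were tested, with 3 lower and 1 higher in shMap3k7 and 5 lower in shDouble (medians -0.48 and -0.49). Lbp, which loads lipopolysaccharide onto CD14, was at 2.29 ± 1.68 CPM in shMap3k7 and 1.47 ± 1.18 in shDouble, against 145.5 ± 27.97 in shChd1 and 49.2 ± 35.3 in shControl (log2 fold changes -4.45 ± 0.80 and -5.02 ± 0.60 against shControl, edgeR adjusted p = 0.00865 and 5.37e-04). The carrier of the ligand and its surface receptor were thus both low in the same 6 libraries. Cnpy4, a TLR4-associated protein of the secretory pathway, fell to 23.4 ± 2.87 CPM in shMap3k7 and 26.1 ± 3.75 in shDouble, against 40.4 ± 5.78 in shControl. The proteases Ctsb and Lgmn, which act in endosomes, were the others named by the rule, Ctsb called in both comparisons and Lgmn in shDouble. Tril, a further TLR4 accessory protein and the last of those called in shDouble, had 0 counts in all 6 libraries of the Map3k7 clones, against 53 over shControl. The gene called higher in shMap3k7 was Hsp90b1, a chaperone of Toll-like receptors (log2 fold change 0.37). Both are outside the naming rule and were picked after their values were seen.

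Of 7 other adaptors, 4 were tested and 1 fell in shDouble, Ticam1, the adaptor of TLR3, at 8.45 ± 0.951 CPM in shDouble against 12.3 ± 1.08 in shControl (log2 fold change -0.54 ± 0.14, edgeR adjusted p = 0.0179; list median -0.34). Of 8 tested genes of the TRIF and interferon arm, 2 fell in shDouble, Tank and Ikbke, by 0.39 and 0.57 on the log2 scale (list median -0.34), where 13.6% of all genes were called lower. Tlr3 itself was not low in these libraries.

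The 15 IRAK, TRAF, Pellino and IL-1 receptor genes went both ways, with 4 lower in shMap3k7 and 6 lower and 3 higher in shDouble (medians -0.09 and -0.19). Irak3, an inhibitor of the IRAK kinases, fell to 1.66 ± 0.600 CPM in shMap3k7 and 1.41 ± 0.225 in shDouble, against 7.05 ± 1.68 in shControl (log2 fold changes -2.08 ± 0.31 and -2.32 ± 0.24, edgeR adjusted p = 0.00400 and 2.63e-04). Il1r1, the interleukin-1 receptor, which also signals through MYD88, was at 11.6 ± 0.476 and 12.8 ± 4.01 CPM, against 37.0 ± 9.54 in shControl. Peli3 and Il1rap fell in both groups too. The 3 genes called higher in shDouble were Traf6, Peli1 and Ube2n, the ubiquitin machinery upstream of TAK1, by 0.37, 0.46 and 0.43 on the log2 scale; they are outside the naming rule and were picked after their values were seen.

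Of the NOD partners, 11 of 13 were tested, with 1 lower in shMap3k7 and 2 lower and 1 higher in shDouble (medians -0.07 and -0.14), close to the shares over all genes. Ripk2, the kinase that NOD1 and NOD2 recruit, was at 21.3 ± 0.654 CPM in shMap3k7 (edgeR adjusted p = 0.0675) and 20.8 ± 2.25 in shDouble (adjusted p = 0.0163), against 35.3 ± 12.3 in shControl. Birc3, a ubiquitin ligase of this complex, fell to 11.2 ± 1.62 CPM in shMap3k7 and 11 ± 2.66 in shDouble, against 24.7 ± 7.07 in shControl. Slc15a3, a transporter of NOD ligands, was the one called higher in shDouble, at 1.23 ± 0.411 CPM against 0.273 ± 0.196 in shControl. Beside log2 fold changes of -3.93 for Nod1 and -3.23 for Nod2 in shDouble, that of Ripk2 was -0.76.

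Of 24 other cytosolic sensors and inflammasome genes, 15 were tested, with 4 lower in shMap3k7 and 7 lower and 1 higher in shDouble (medians -1.05 and -0.88). Casp1, the inflammasome protease, had 0 counts in all 6 libraries of the Map3k7 clones against 125 counts over shControl, at least 22.7-fold lower in shMap3k7 and at least 62.7-fold lower in shDouble with 3 counts taken over each group. Naip2, a sensor of bacterial secretion systems, was at 0.307 ± 0.0250 CPM in shMap3k7 and 0.504 ± 0.221 in shDouble, against 2.88 ± 0.954 in shControl. Naip6 and Zbp1 were the others named; Zbp1 varied widely in shControl, at 3.88 ± 4.204 CPM. The gene called higher in shDouble was Mavs, the adaptor of RNA sensors (log2 fold change 0.32), picked after its value was seen.

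Among 7 genes of the TAK1 and IKK complexes, 2 were lower and 1 higher in shMap3k7, and 2 lower and 2 higher in shDouble (medians 0.01 and -0.04). Those lower were Map3k7 and Ikbkg, the IKK regulatory subunit NEMO, at 34.5 ± 1.996 CPM in shMap3k7 and 32.7 ± 3.78 in shDouble, against 48.8 ± 4.61 in shControl. Chuk, which encodes IKK alpha, was higher at 92.3 ± 1.31 and 91.6 ± 5.58 CPM, against 66.6 ± 5.69 in shControl. Tab3, a TAK1-binding protein, was higher in shDouble.

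Of the 9 pathway lists, that of NF-kB target genes of these receptors had the lowest median. Of 26 genes 20 were tested, with 12 lower in shMap3k7 and 14 lower and 1 higher in shDouble (medians -1.73 and -2.07). Il6 was at 0.351 ± 0.220 CPM in shMap3k7 and 0.142 ± 0.101 in shDouble, against 16.6 ± 1.23 in shChd1 and 16.8 ± 6.22 in shControl (log2 fold changes -5.58 ± 0.59 and -6.76 ± 0.47 against shControl, edgeR adjusted p = 8.47e-04 and 2.8e-05). Cebpd, a transcription factor of the acute-phase response, fell to 16.04 ± 2.19 and 12.5 ± 2.92 CPM, against 105.3 ± 11.9 in shControl. Bcl3, an IkB family protein, and the chemokine Cxcl2 fell in both groups as well. The gene called higher in shDouble was Ptgs2, which encodes cyclooxygenase, at 1187 ± 162.0 CPM against 599.7 ± 281.1 in shControl; it was picked after its value was seen. With genes at 0 counts set to their bound from 3 counts, each list median was the same as given here. Cd14, Nod1 and Nod2 lay below the median of this list in both comparisons, and Tlr2, Tlr4, Irak2 and Myd88 above it.

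**Figure D4:**
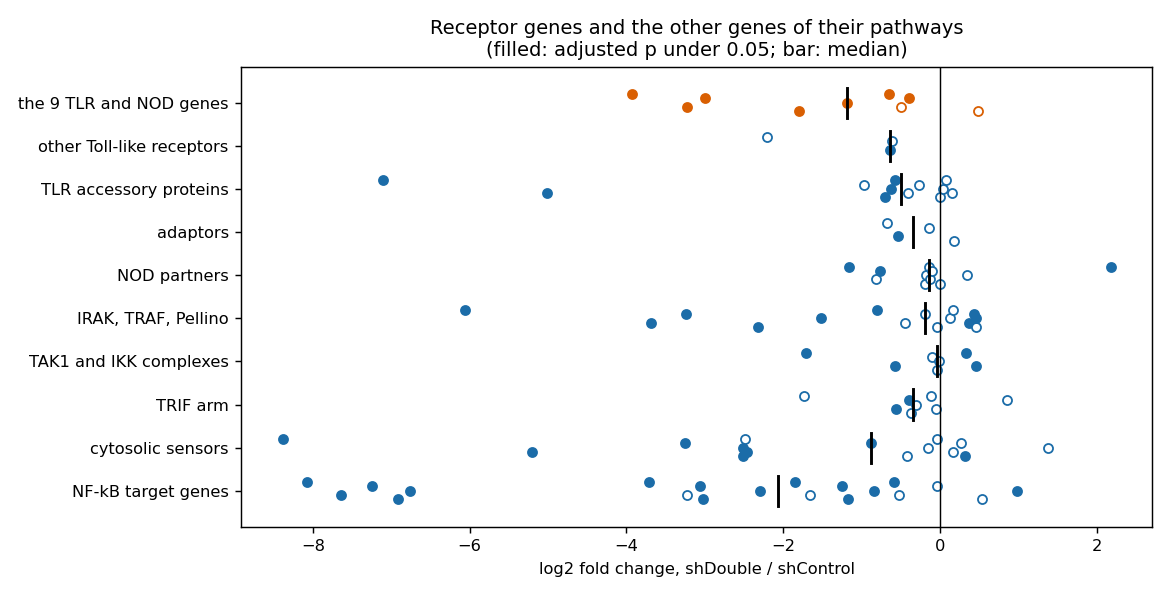
Log2 fold changes in shDouble against shControl of the 9 genes (orange) and of 9 lists of other genes of their pathways (blue); each point is 1 gene, filled where the adjusted p is under 0.05 in edgeR, and the bar is the median. Many of the points furthest to the left belong to genes with few or 0 counts in shDouble, whose fitted values depend on the prior count. Lcn2, an NF-kB target gene at -7.64, is an exception, with 298 counts in shDouble. It was picked after its value was seen. The medians are -1.19 for the 9 genes and -2.07 for the NF-kB target genes.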

How the data were processed

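The authors' deposited table of expected counts (reads per gene estimated by the counting program, before any normalization) was used; per the submitters' processing notes the tools were Bowtie2, RSEM 1.3.1 and limma, on GRCm38. The annotation and the strand setting were not given in the sources used here. RSEM divides reads between similar sequences. The deposited normalized table was not used here.

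Counts were rounded and analysed in R 4.3.3 with edgeR 4.0.16: filterByExpr by group (minimum count 10, minimum total 15), normalization by the trimmed mean of M-values, 1 mean per group fitted to all 11 libraries together, two-sided quasi-likelihood F-tests, and p-values adjusted by Benjamini-Hochberg for 14346 genes, called at an adjusted p under 0.05. Clone 1 against clone 7 used a mean per line and terms for the Chd1 hairpins. SE is the log2 fold change over the root of F. Log2 CPM used a prior count of 0.5. Levels per kb use the exon union of GENCODE M21. Between libraries of a group, the chi-square per degree of freedom was 8.14 to 49.5, so none was a copy of another. Alternatives were other size factors, filters, DESeq2 1.42.0, limma voom (3.58.1), only the groups compared, counts summed per line, the line as a replicate block, and each library left out. The pairing by line comes from the labels. The fit was tested on simulated data.

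The members, lists and markers were chosen with earlier results of these data known. Of each list, up to 4 called genes with the smallest adjusted p in shMap3k7 or shDouble are named, with exceptions stated.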

Additional observations from a re-analysis of the deposited data

Results flagged for a closer look

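In the 4 shDouble libraries, 1 stood apart from the other 3 for 2 of the 9 genes, by the gap to its nearest neighbour over the whole range of log2 CPM. For Tlr3 this was replicate 3 (clone 7, construct 96526), at 38.4 CPM where the others had 30.1 to 31.1, with a ratio of 0.860. For Nod2 it was replicate 1 (clone 1, construct 96526), at 1.90 CPM where the others had 1.54 to 1.56, with a ratio of 0.959. For 4 independent values of 1 normal distribution, chance marks about 1 in 20 groups in this way. These libraries are 2 clones with 2 constructs each, and 9 genes were looked at, so that rate need not hold here. Both remained on the same side of every shChd1 and shControl library, and the causes were not tested.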

How the results depend on the processing

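No member reversed its direction in any comparison where it was called: of 398 such values 362 stayed past the threshold and 36 did not. Cd14 and Nod1 stayed past it in all 19 alternatives in shMap3k7 and in shDouble against shControl and in shDouble against shChd1, with log2 fold changes of -2.56 to -2.96, -2.76 to -3.16 and -3.28 to -3.50 for Cd14, and -3.22 to -5.27 for Nod1 in shMap3k7. The number of members called in shMap3k7 against shControl (5) was 2 with only the groups compared and 3 with counts summed per line, which leave fewer samples, 8 with the line as a replicate block, and 3 to 6 with 1 library left out. The number in shDouble against shControl (7) was 4 with counts summed per line, where Tlr4, Irak2 and Myd88 were lost (adjusted p = 0.0812, 0.0742 and 0.161). For shChd1 against shControl (1) it was 0 with only the groups compared, 0 with counts summed per line, 0 with the line as a replicate block, and 0 to 4 with 1 library left out (4 without shControl replicate 2). For clone 1 against clone 7 (1) it was 2 with DESeq2-type size factors, 2 with at least 1 CPM in at least 4 libraries, and 1 to 2 with 1 library left out. The calls that the block added or ended stand beside the genes above, and it changed no other call. Calls over all genes moved with these counts. In shMap3k7 against shControl, 1712 genes were called in the main fit, 227 with only the groups compared and 5270 with the block. With counts summed per line, fewer genes were called than in the main fit, there and in shDouble against shControl. In shChd1 against shControl, 417 were called in the main fit and 2650 without shControl replicate 2. The cause of these shifts was not tested. Nod1 and Ly96 had the fewest counts. Measured on the longest transcript, the shControl level moved by more than its SD for Tlr4 (4.90 CPM per kb), Ly96 (2.84) and Irak2 (4.08).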
